A study of Homo sapiens with 2 samples.

Results

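The methylation of 10 genes of mitochondrial fusion and cristae shape was examined in SH-SY5Y, a human neuroblastoma cell line with properties of sympathetic neurons. DNA came from cells given the solvent DMSO (control) or Mdivi-1, a small molecule used to inhibit the fission GTPase DRP1, with no dose or exposure time in the labels. Each group held 1 library of methyl-capture bisulfite sequencing, in which unmethylated cytosines read as thymines, so no difference has a replicate check. The genes were chosen by name as MFN1, MFN2, OPA1, OMA1, YME1L1, IMMT, STOML2, PHB2, CHCHD3 and MICOS10, 10 of 30771 gene symbols in the deposited annotation. All CpGs that the annotation places in the promoter or the transcribed region of these genes were taken. Of 1027 such positions, 996 had at least 10 reads in both libraries and 31 did not, and every gene kept between 59 (OMA1) and 134 (OPA1) CpGs. These were 996 of the 2523690 CpGs measured to this depth, and 319 of the 996 carried a promoter label.

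Mitochondria join their outer membranes through the mitofusins MFN1 and MFN2 and their inner membranes through OPA1, a dynamin-related GTPase that also holds cristae junctions narrow. The inner membrane proteases OMA1 and YME1L1 cut OPA1 into long and short forms, and the balance of these forms sets how much fusion takes place. Cristae junctions are built by the MICOS complex, whose core and partners include IMMT (mitofilin), CHCHD3 and MICOS10. PHB2, a prohibitin, and STOML2, a stomatin-like protein that binds cardiolipin, form scaffolds in the inner membrane around these proteases.

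Promoters of such widely used genes are usually rich in CpG. The RefSeq promoter table, in build GRCh38.p14, held a window of 300 bases, from 250 before to 50 after an annotated start, for 9 of the 10 genes; YME1L1 has none printed here. Windows are shown for both mitofusins, for the inner membrane fusion gene and for the MICOS core gene, because these contrast in CpG number and belong to the genes whose island edges are described in most detail. They are written 5′ to 3′ on the coding strand, which is the plus strand for MFN1, MFN2 and OPA1 and the minus strand for IMMT, with each CpG in capitals.
MFN1, chr3:179347459-179347758: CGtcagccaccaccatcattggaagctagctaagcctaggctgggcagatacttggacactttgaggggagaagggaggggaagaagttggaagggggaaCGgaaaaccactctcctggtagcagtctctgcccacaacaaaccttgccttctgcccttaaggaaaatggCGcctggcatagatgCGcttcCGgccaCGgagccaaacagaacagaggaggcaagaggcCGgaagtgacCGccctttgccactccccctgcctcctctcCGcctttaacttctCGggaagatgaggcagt
MFN2, chr1:11980194-11980493: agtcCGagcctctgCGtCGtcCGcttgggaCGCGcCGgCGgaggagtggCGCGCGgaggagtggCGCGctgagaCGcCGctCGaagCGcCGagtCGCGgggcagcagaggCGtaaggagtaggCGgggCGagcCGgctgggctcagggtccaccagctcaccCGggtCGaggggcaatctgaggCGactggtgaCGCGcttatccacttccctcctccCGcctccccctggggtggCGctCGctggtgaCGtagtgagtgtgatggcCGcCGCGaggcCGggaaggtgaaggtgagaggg
OPA1, chr3:193592958-193593257: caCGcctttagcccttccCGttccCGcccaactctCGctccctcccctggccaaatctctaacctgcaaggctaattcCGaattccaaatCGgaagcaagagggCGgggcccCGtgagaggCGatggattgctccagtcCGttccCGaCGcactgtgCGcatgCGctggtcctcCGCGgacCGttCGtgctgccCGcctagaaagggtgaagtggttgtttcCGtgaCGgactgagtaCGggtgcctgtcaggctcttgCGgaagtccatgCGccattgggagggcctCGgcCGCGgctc
IMMT, chr2:86195413-86195712: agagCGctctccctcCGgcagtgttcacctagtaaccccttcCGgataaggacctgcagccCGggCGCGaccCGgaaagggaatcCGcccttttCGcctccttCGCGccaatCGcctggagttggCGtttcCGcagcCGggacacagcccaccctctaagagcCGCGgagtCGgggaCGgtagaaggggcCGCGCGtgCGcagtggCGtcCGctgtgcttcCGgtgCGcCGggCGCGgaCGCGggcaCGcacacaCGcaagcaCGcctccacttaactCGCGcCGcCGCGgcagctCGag
The MFN1 window had 10 CpGs, the MFN2 window 37, the OPA1 window 27 and the IMMT window 41, against a median of 14 over the 35116 windows of the table. MFN1 was therefore the CpG-poor member of this group of 4, although its island, described below, holds 48 CpGs. These windows were not matched to the hg19 positions of the methylation table. After the sequences had been seen, a pair of motifs was searched on both strands. The core of the NRF1 motif, GCATGCG, was in the OPA1 window, on both strands around a palindrome that begins 93 bases before the start, and in no other window of these genes. It is in 3.91% of all windows. The ETS core CCGGAAG was in windows of IMMT, MFN1, MICOS10, PHB2 and STOML2, and 10.3% of all windows hold it. The motifs do not overlap each other, and a match is a description of letters only.

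The 996 CpGs had a median coverage of 36 reads with DMSO and 45 with Mdivi-1, and by gene the medians ran from 21 and 27 reads (MFN2) to 86.5 and 121 (CHCHD3). At these medians a CpG free of methylation in all 36 control reads would have needed 21 of 45 methylated Mdivi-1 reads (46.7%) to be called, that is to reach an adjusted Fisher exact p under 0.05 over all measured CpGs with a gap of 20 points or more. Promoters of markers of the adrenergic neuroblastoma state were mixed: HAND2 (1.15%), GATA3 (0.802%), GATA2 (2.31%), ISL1 (1.04%) and DBH (1.23%) were nearly unmethylated in the control, whereas PHOX2A (30.2%) and TH (53.7%) were not. Promoters of the leukocyte gene PTPRC (89.5%) and the epithelial genes EPCAM (90.3%) and CDH1 (71.2%) were highly methylated. Promoter methylation does not measure expression, and RNA-seq, which the design text also names, was not analysed here.

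All 10 genes had a CpG island in or next to the promoter, with almost no methylation in both libraries. In MFN1 and IMMT no island CpG carried the promoter label. Shores ranged from unmethylated to mostly methylated. In the 9 genes with measured CpGs beyond the shores, all but STOML2, those CpGs averaged 89.7% or more, although the 4 open-sea CpGs of PHB2 were at 78.3% and 81.6%. Islands are CpG-dense stretches, shores and shelves are the zones flanking them, and open sea is the rest. Over the 474 island CpGs of the 10 genes the mean level was 1.13% with DMSO and 1.30% with Mdivi-1. The 317 shore CpGs were at 22.5% and 22.0%, the 31 shelf CpGs at 93.2% and 94.0%, and the 174 open-sea CpGs at 91.7% and 92.4%. CpGs were thus nearly all at an extreme. Under 10% in both libraries were 693 (69.6%), over 80% in both were 242 (24.3%), and only 30 (3.01%) had a mean between 20 and 80%, against 40.1%, 31.6% and 19.6% of all measured CpGs. Among the 996, 252 (25.3%) had no methylated read in either library. At the median coverages a count of 0 still allows a level of up to 8.33% with DMSO and 6.67% with Mdivi-1 (3 reads of the total, for counting error alone).

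**Figure D1:**
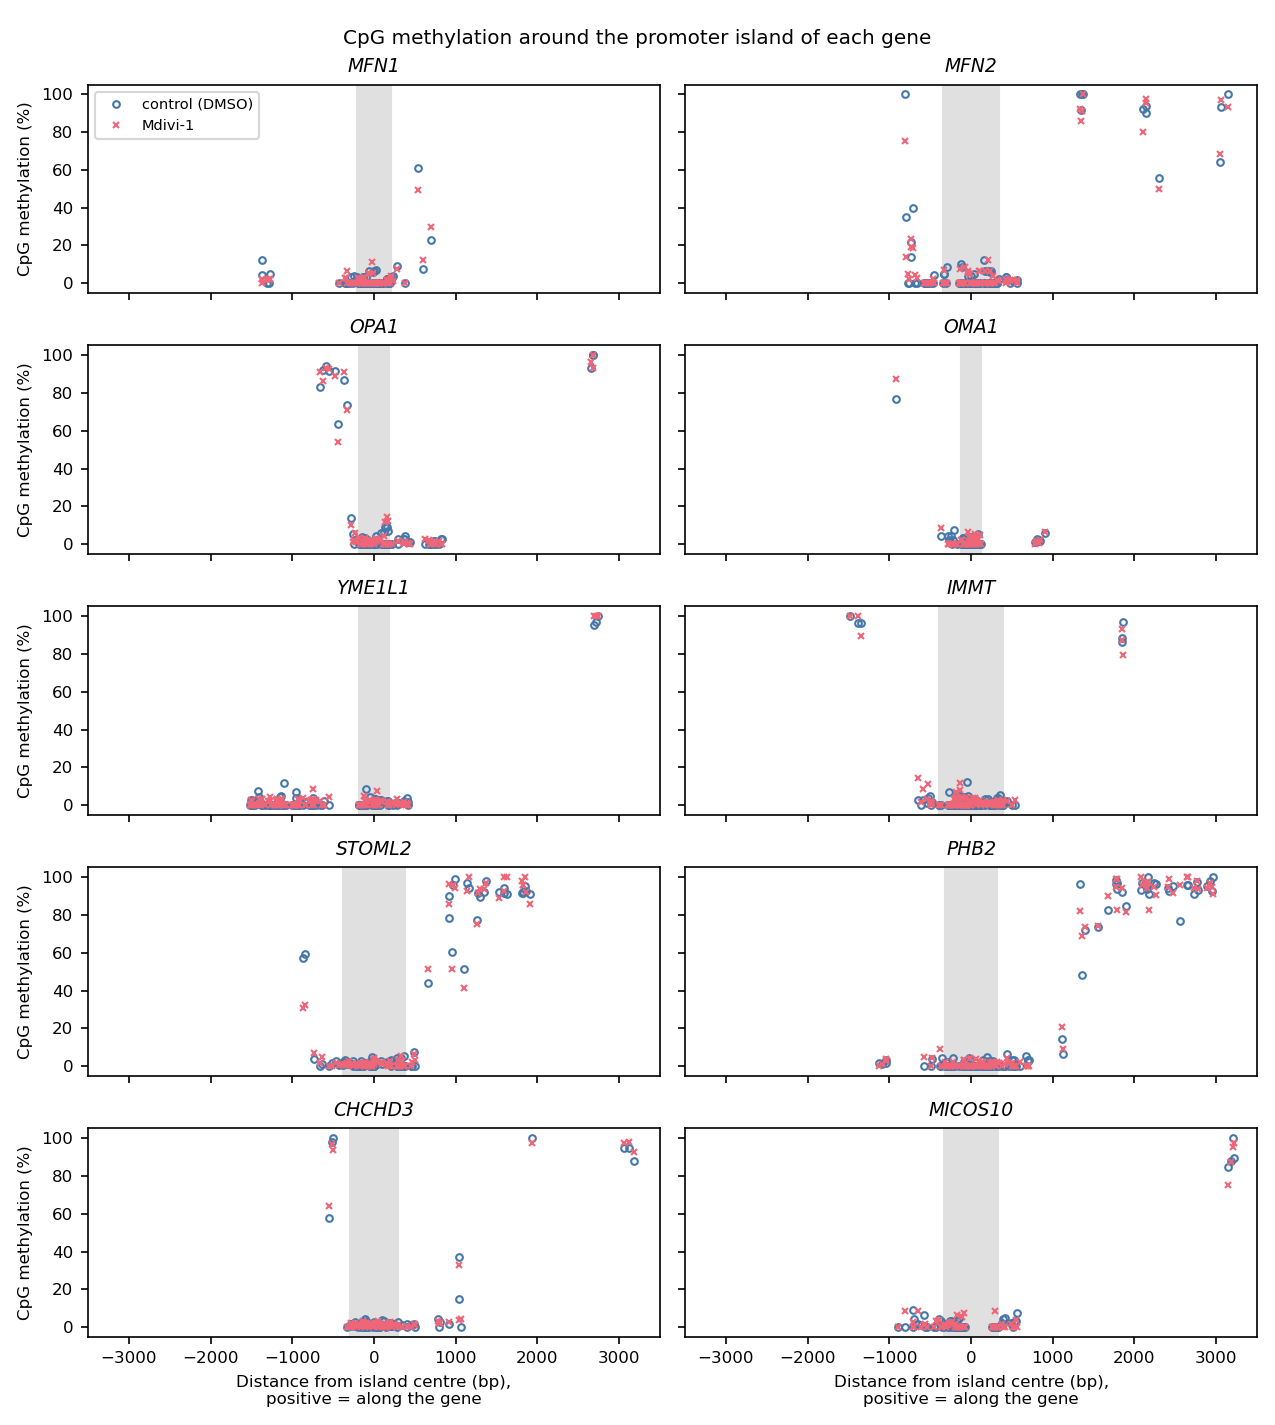
Methylation (%) of each measured CpG against distance (bp) from the centre of the gene's CpG island, oriented along the gene. Control (circles) and Mdivi-1 (crosses) are shown within 3500 bp, with the measured extent of the island shaded. In all 10 genes the island stays under 15% at every CpG in both libraries, and where a step to high methylation was measured it lies at different distances from the island.

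The islands of these genes were alike. Their lengths ran from 251 bp (OMA1) to 790 bp (IMMT) and their GC content from 60.2% (STOML2) to 71.9% (MFN2). Control levels ran from 0.582% (MICOS10) to 1.69% (MFN2) and Mdivi-1 levels from 0.703% (PHB2) to 2.02% (OPA1). The highest single island CpG in either library was at 14.3%, in OPA1. For comparison, the CpGs of all genes that lie in both a promoter and an island averaged 14.0% in the control. The 159 such CpGs of the 10 genes averaged 1.17%. None of them was in MFN1 or IMMT, whose promoter CpGs all lay in shores. By annotated region, 143 CpGs in 5′ UTRs were at 1.16% and 1.43%, 170 upstream CpGs at 9.42% and 9.33%, 154 exonic CpGs at 44.1% and 44.8%, 411 intronic CpGs at 35.7% and 35.6%, and 16 CpGs in 3′ UTRs at 89.7% and 92.1%. Intron means combine both extremes: intronic island CpGs were at 1.14% in the control and intronic open-sea CpGs at 91.1%.

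**Figure D2:**
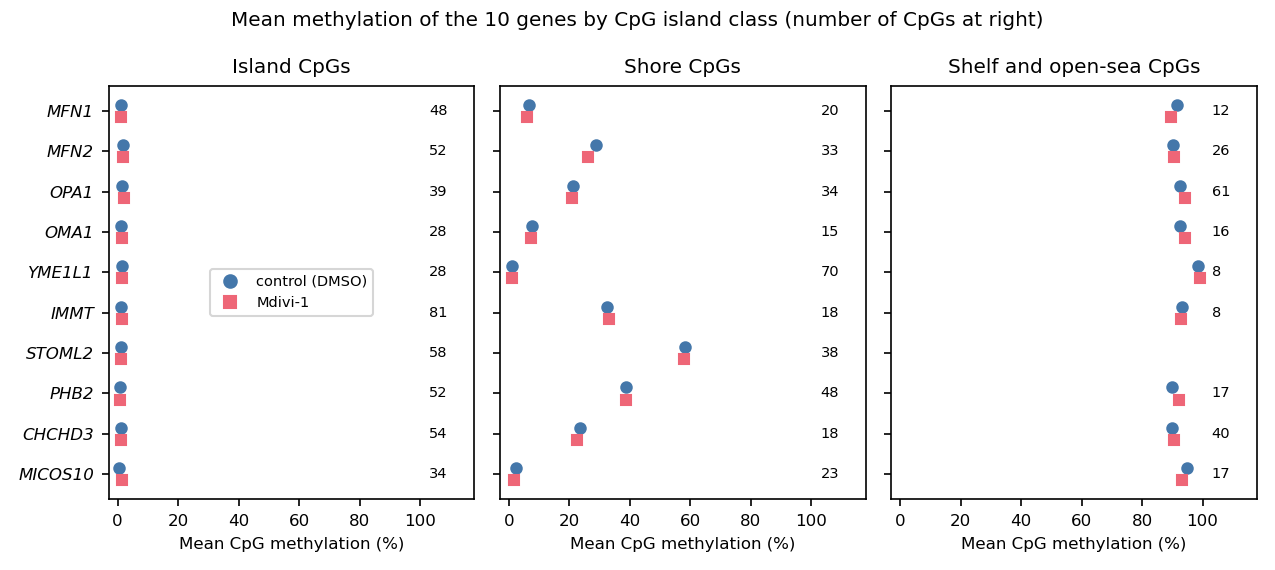
Mean CpG methylation (%) of each gene in the control (circles) and Mdivi-1 (squares) library for island, shore, and shelf with open-sea CpGs, with the number of CpGs at the right of each row. Island means lie at or under 2.02% and shelf and open-sea means at or above 89.7%, while shore means run from 1.04% (YME1L1) to 58.3% (STOML2) in the control. STOML2 had no measured shelf or open-sea CpG.

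Among the outer membrane GTPases, MFN1 (chromosome 3, measured CpGs from 179064398 to 179110335, hg19) was at 16.0% with DMSO and 15.6% with Mdivi-1 over 80 CpGs. Its island of 48 CpGs was at 1.07% and 1.14%, and all 14 CpGs measured upstream of it, out to 1164 bp, stayed under 20%. Methylation began inside the gene: an intronic shore CpG at 179066306 had 28 of 46 methylated reads with DMSO and 31 of 63 with Mdivi-1, and another at 179066467 had 12 of 52 and 16 of 54. The 12 open-sea CpGs were at 91.5% and 89.7%.

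The widest gap between the libraries at any CpG of the 10 genes was in intronic open sea of MFN1. At 179093798 the control had 13 methylated reads of 19 (68.4%, 95% Wilson interval 46.0 to 84.6%) and the Mdivi-1 library 7 of 25 (28.0%, interval 14.3 to 47.6%), a difference of -40.4 percentage points (two-sided Fisher exact p = 0.0138, Benjamini-Hochberg adjusted p = 1.0). Its neighbours did not share the size of that gap. The CpG at 179093756 had 16 of 16 and 20 of 23 methylated reads, and that at 179093843 had 11 of 12 and 18 of 20. CpGs at 179093708 and 179094638 lay the other way, with 11 of 14 against 16 of 16 and 10 of 13 against 20 of 20, the latter being the largest gain in MFN1. A stretch of 5 CpGs from 179093756 to 179094053 averaged 92.0% with DMSO and 78.5% with Mdivi-1, lower at all 5. That difference of -13.5 points carries a counting error of 4.32 points if CpGs are independent. For shared reads the error was taken as that of a single CpG at the mean level and mean coverage, here 9.85 points. This stretch and the overlapping one from 179093798 to 179094077 (-11.3 points) were the only 2 of 781 stretches of 5 CpGs in the 10 genes whose mean differed by 10 points or more with 80% of the CpGs on the same side. That is 0.256%, against 3.14% of all 1945411 stretches. These shares were not matched for level. Under 10% in both libraries were 69.6% of the CpGs of the 10 genes and 40.1% of all CpGs.

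MFN2, the mitofusin mutated in an inherited axonal neuropathy (chromosome 1, 12039649 to 12073453), was at 30.5% and 29.8% over 111 CpGs. Its island was at 1.69% and 1.67% over 52 CpGs and its 23 open-sea CpGs at 90.8% and 91.0%. The edge of its unmethylated zone lay 466 bp upstream of the island. The 7 CpGs from there to 12039739 were uneven. At the outermost, 12039649, methylated reads were 18 of 18 with DMSO and 24 of 32 with Mdivi-1 (100%, 95% Wilson interval 82.4 to 100%, and 75.0%, interval 57.9 to 86.7%, two-sided Fisher exact p = 0.0387, adjusted p = 1.0). At 12039657 they were 7 of 20 and 5 of 36, and at 12039739, 8 of 20 and 8 of 43. These 3 were lower in the Mdivi-1 library by over 20 points, whereas the 4 between them were not. Of those, 12039713 (5 of 23 and 10 of 43) and 12039715 (3 of 22 and 8 of 42) were partly methylated, and 12039678 (0 of 23 and 2 of 39) and 12039689 (0 of 26 and 1 of 40) nearly unmethylated. The 17 promoter shore CpGs were at 12.6% and 9.82%, a difference of -2.81 points with counting errors of 1.57 points (independent) and 9.14 points (shared reads). The latter is too large, because it is taken at the mean of very unlike levels. The root mean square counting error of single CpGs here was 6.46 points, which the error of their mean cannot exceed. Deeper in the gene, the largest loss of MFN2 was at the intronic CpG 12061667, with 12 of 14 and 6 of 11 methylated reads, at the edge of the depth allowed. A nearby exonic CpG at 12061837 had the largest gain, with 28 of 33 and 29 of 29.

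OPA1 (chromosome 3, 193310351 to 193414793) had the highest overall level of the 10 genes, 48.0% with DMSO and 48.8% with Mdivi-1, and 61 of its 134 CpGs lay in shelf or open sea. Its island of 39 CpGs was at 1.50% and 2.02%. The upstream shore showed a sharp step that both libraries traced. At 193310351 the levels were 83.1% and 90.9%, at 193310533 91.5% and 89.1%, and at 193310640 86.6% and 91.2%. A dip at 193310566 (63.3% and 54.2%) and a shoulder at 193310680 (73.8% and 71.1%) were present in both. At the next CpG, 193310722, the levels were 14.1% and 10.4%, so in both libraries the level fell from over 70% to under 15% between neighbouring measured CpGs. The shelf and open-sea CpGs of OPA1 were at 92.5% and 94.3%, a difference of 1.74 points with counting errors of 0.768 points (independent) and 5.40 points (shared reads), or 1.01 points with pooled reads. Within the gene body, the largest gain was at intronic 193339171 (17 of 21 and 19 of 19 methylated reads) and the largest loss at intronic 193345169 (13 of 13 and 27 of 31). The smallest unadjusted p in OPA1 was at the deeply read intronic CpG 193354432, with 102 of 113 and 160 of 167 (two-sided Fisher exact p = 0.082, adjusted p = 1.0).

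Of the proteases that cut OPA1, OMA1 (chromosome 1, 58962951 to 59013366) was at 27.6% and 28.1% over 59 CpGs, and YME1L1 (chromosome 10, 27425211 to 27444738) at 8.47% and 8.59% over 106. OMA1, the stress-activated protease, had the shortest island (251 bp, 1.06% and 1.55%). Upstream of it, 8 CpGs out to 244 bp were under 20%. The next measured CpG, 789 bp away at 59013366, had 10 of 13 and 14 of 16 methylated reads. In an OMA1 intron, 5 CpGs from 59005063 to 59005392 were higher in the Mdivi-1 library at every position, averaging 89.1% and 96.1%. They include 59005170, which had both the largest gain and the smallest p in OMA1, with 39 of 45 and 48 of 49 methylated reads (two-sided Fisher exact p = 0.0518, adjusted p = 1.0). The mean difference of 6.99 points, the largest gain of any stretch of 5 in the 10 genes, carries counting errors of 2.85 points (independent) and 5.61 points (shared reads). The largest loss in OMA1 was at an intronic shelf CpG, 59008472, with 36 of 39 and 42 of 51.

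YME1L1, the constitutive protease, was the least methylated of the 10 genes. All 58 CpGs measured upstream of its island, out to 1333 bp, were under 20%, and its 70 shore CpGs averaged 1.04% and 1.12%. Its promoter CpGs are shared with or lie inside MASTL, a mitotic kinase gene read in the opposite direction, so the unmethylated zone is annotated to both genes. Across the 10 genes, 60 promoter CpGs lay only inside a neighbouring gene. The largest gaps in YME1L1 were of a few reads. At 27443175 in the 5′ UTR 0 of 31 and 3 of 41 reads were methylated, and at 27444313, upstream, 2 of 17 and 0 of 19. The intronic shore CpG 27442938, with 0 of 103 and 4 of 116, had the smallest p (two-sided Fisher exact p = 0.124, adjusted p = 1.0). The 8 shelf and open-sea CpGs of YME1L1 were at 98.5% and 99.3%.

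Of the MICOS genes, IMMT (chromosome 2, 86371212 to 86423945), which encodes the core subunit mitofilin, had the longest island. Its 81 measured island CpGs were at 0.976% and 1.31%. The 12 promoter CpGs, all in the upstream shore, were at 25.9% and 27.8%, and this mean combined 2 kinds of CpG. The 3 farthest, from 86423812 to 86423945, were at 89.5% or more in both libraries, and the other 9 were under 20%. Among those 9, the CpGs at 86422995 (3 of 80 and 10 of 90 reads), 86423047 (2 of 72 and 7 of 83) and 86423113 (1 of 39 and 8 of 56) were all higher in the Mdivi-1 library. None of the 3 had an unadjusted two-sided Fisher exact p under 0.0769. The largest gain in IMMT was at 86371212 in the 3′ UTR, with 27 of 33 and 37 of 39. Lower in the Mdivi-1 library were an intronic island CpG at 86422113, with 5 of 94 and 1 of 149 methylated reads (p = 0.0335 by the same exact test), an intronic shore CpG at 86420601, with 31 of 32 and 31 of 39 (p = 0.0352 by the same exact test), and a 3′ UTR CpG at 86371322, with 70 of 71 and 83 of 92 (p = 0.0439 by the same exact test).

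CHCHD3 (chromosome 7, 132470244 to 132767354), a MICOS subunit that binds IMMT, was the most deeply read of the 10 genes and was at 36.4% and 36.5% over 112 CpGs. Its island of 54 CpGs was at 1.17% and 1.16%, and no island CpG passed 4.26% in either library. The upstream edge was close, with the first CpG at or above 80% only 204 bp from the island, at 132767300 (59 of 59 and 101 of 108 methylated reads). CHCHD3 also held the smallest unadjusted p of the 996 CpGs. At the intronic CpG 132541339, 174 of 187 control reads and 219 of 223 Mdivi-1 reads were methylated (93.0%, 95% Wilson interval 88.5 to 95.9%, and 98.2%, interval 95.5 to 99.3%, two-sided Fisher exact p = 0.0117, adjusted p = 1.0). A cluster of CpGs in intronic open sea was intermediate in both libraries, at 47.2% and 46.8% (132617822), 68.3% and 60.9% (132617862) and 31.4% and 42.3% (132617904, the largest gain). The adjoining 132617768 had the largest loss, with 33 of 37 and 38 of 49 methylated reads. In the island, 132766704 (4 of 108 and 0 of 149 reads) and 132766907 (4 of 94 and 0 of 136) were the lower pair with an unadjusted p under 0.05 (two-sided Fisher exact p = 0.0302 and 0.0268, adjusted p = 1.0).

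MICOS10 (chromosome 1, 19922783 to 19955832), a small MICOS subunit that bends the inner membrane, had the least methylated island, at 0.582% in the control, with 1.33% in the Mdivi-1 library over 34 CpGs. That difference of 0.743 points carries counting errors of 0.477 points (independent) and 2.33 points (shared reads). All 15 CpGs upstream, out to 560 bp, were under 20%, and the first CpG at or above 80% lay 2849 bp downstream. Its promoter CpGs are also assigned to the read-through transcript MICOS10-NBL1 and partly to LOC105378614. The largest gain in MICOS10 was shared by 19922868, upstream of the island, with 0 of 27 and 2 of 24 methylated reads, and the island CpG 19923963, with 0 of 13 and 1 of 12. The largest loss was at intronic 19945148, with 18 of 19 and 14 of 17. The smallest p was at 19953390, with 56 of 59 and 63 of 63 (two-sided Fisher exact p = 0.11, adjusted p = 1.0).

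The scaffold genes differed in their shores. STOML2 (chromosome 9, 35101169 to 35103946) had the most methylated shores of the 10 genes, 58.3% and 57.9% over 38 CpGs. The first CpG with a mean of both libraries at or above 80% lay 536 bp downstream of its island. Several exonic and intronic shore CpGs were partly methylated in both libraries, such as 35101982 (51.6% and 41.3%) and 35102120 (60.2% and 51.2%). Another, 35102417 (43.9% and 51.5%), lay between the island and that first CpG. At the far upstream end, between STOML2 and FAM214B, the CpG at 35103919 had 13 of 22 and 11 of 34 methylated reads and that at 35103946 had 8 of 14 and 8 of 26. Both were lower in the Mdivi-1 library by over 26 points (two-sided Fisher exact p = 0.0586 and 0.176, adjusted p = 1.0). The largest gain in STOML2 was at exonic 35101449, with 20 of 22 and 26 of 26, and the smallest p at the island CpG 35103341, with 4 of 143 and 0 of 181 (two-sided Fisher exact p = 0.0371, adjusted p = 1.0). Of the 10 promoter shore CpGs of STOML2 the other 8 were under 10% in both libraries. The promoter shore as a whole was at 12.8% and 8.02%, a difference of -4.74 points with counting errors of 2.22 points (independent) and 4.75 points (shared reads). Weighted by reads, the same 10 CpGs differed by -0.244 points.

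PHB2 (chromosome 12, 7074620 to 7080948), a prohibitin that also acts as a mitophagy receptor, was at 29.2% and 29.6% over 117 CpGs. Its island was at 0.649% and 0.703% over 52 CpGs, and all 10 CpGs upstream of it were under 20%. Its promoter overlaps that of the ribosome assembly gene EMG1. Methylation rose on the intragenic side 1020 bp from the island. There the CpG at 7078456 had the largest gain, with 13 of 27 and 20 of 29 methylated reads, and the adjoining CpG at 7078482 had the largest loss, with 27 of 28 and 32 of 39. Neither gap had a two-sided Fisher exact p under 0.126, and the smallest p in PHB2 was 0.0733, at 7078025 (59 of 63 and 66 of 80, by the same exact test).

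No CpG of the 10 genes was called, against 0.000634% of all 2523690 CpGs (16 in all). These tests compare the reads of 2 libraries, not the conditions. At an unadjusted two-sided Fisher exact p under 0.05 there were 9 of 996 CpGs (0.904%), against 2.02% of all CpGs. These shares depend on the mix of levels. Among CpGs with a mean of both libraries under 10% the share was 0.567%, against 0.453% of all such CpGs. At 80% or more it was 1.57%, against 2.6%. Of the 9 CpGs, 1 (in CHCHD3) was higher in the Mdivi-1 library and 8 were lower: 3 in IMMT, 2 in CHCHD3 and 1 each in MFN1, MFN2 and STOML2. Differences of at least 20 points were seen at 3 CpGs that were higher (0.301%, against 1.53% of all CpGs) and 7 that were lower (0.703%, against 1.21%), not matched for level. The 3 higher were 2 in MFN1 and 1 in PHB2, and the 7 lower were 4 in MFN2, 2 in STOML2 and 1 in MFN1. Each of these 10 had 27 reads or fewer in the control. Among the 255 CpGs at or above 80%, 139 (54.5%) were higher in the Mdivi-1 library and 102 (40.0%) lower, against 53.0% and 41.6% of all such CpGs.

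**Figure D3:**
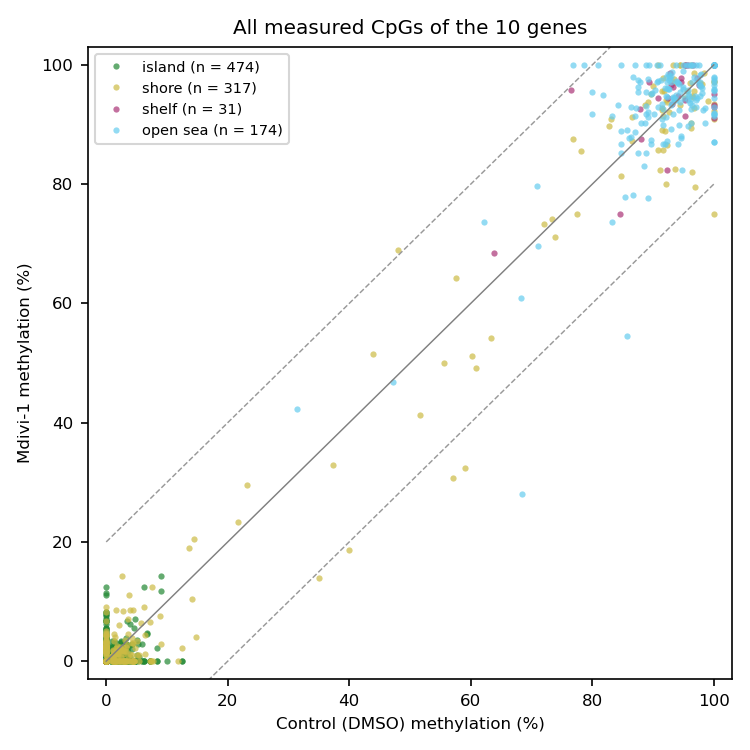
Control against Mdivi-1 methylation (%) of the 996 CpGs, coloured by island class, with the line of equality (solid) and lines 20 points to either side (dashed). Island CpGs sit in the lower left corner and shelf and open-sea CpGs mostly in the upper right, and 10 CpGs lie outside the dashed lines, 3 above and 7 below.

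Averaged over all 996 CpGs, the 10 genes were at 26.6% with DMSO and 26.7% with Mdivi-1. The difference of 0.0911 points was under its counting error of 0.135 points with CpGs taken as independent. Over all measured CpGs, whose mix of levels differs, the difference was 0.460 points. Among CpGs with a mean of 80% or more it was 0.699 points in the 10 genes and 0.82 points over all. Among CpGs with a mean under 10% it was 0.0879 and 0.0817 points. The 319 promoter CpGs of the 10 genes were at 6.36% and 6.11%, a difference of -0.249 points with a counting error of 0.199 points. The 474 island CpGs differed by 0.169 points (counting error 0.132), the 411 intronic CpGs by -0.0809 points (0.235) and the 174 open-sea CpGs by 0.792 points (0.466). Each of these differences in the 10 genes lies within 2 counting errors for independent CpGs, the smaller of the errors. Read counting at equal levels would give a root mean square difference of 4.26 points per CpG, and the observed value was 4.71 points.

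By gene, promoter differences ran from -1.54 points (STOML2) to 1.84 points (IMMT), with 5 of 10 promoters higher in the Mdivi-1 library and 5 lower. Of 26088 promoters with at least 3 CpGs, 58.0% were higher and 41.8% lower, with a median of 0.213 points, and the median of the 10 was 0.0104 points. Higher were IMMT, YME1L1 (0.161), PHB2 (0.129), MICOS10 (0.125) and OMA1 (0.103), and lower were STOML2, MFN2 (-1.29), MFN1 (-0.385), CHCHD3 (-0.120) and OPA1 (-0.0821). Only the STOML2 difference was more than 2 of its counting errors for independent CpGs (0.643 points), and it was smaller than its error for shared reads (2.47 points). It was -0.828 points at a minimum of 20 reads and -0.380 points with pooled reads. The largest gaps of STOML2 were at the pair of shore CpGs at 35103919 and 35103946 given above, and its promoter CpGs inside the island differed by -0.308 points (counting error 0.253). Weighting by reads instead of by CpG turned the sign for 4 of the 10 promoters, among them MFN2 (0.468 points) and CHCHD3 (1.19 points), and gave -3.31 points for OPA1 and 4.53 points for IMMT. In 8 of the 10 genes the promoter mean was under 10% in both libraries, as in 34.4% of all promoters, and the exceptions, OPA1 (23.0% in both) and IMMT, held the methylated shore CpGs described above.

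**Figure D4:**
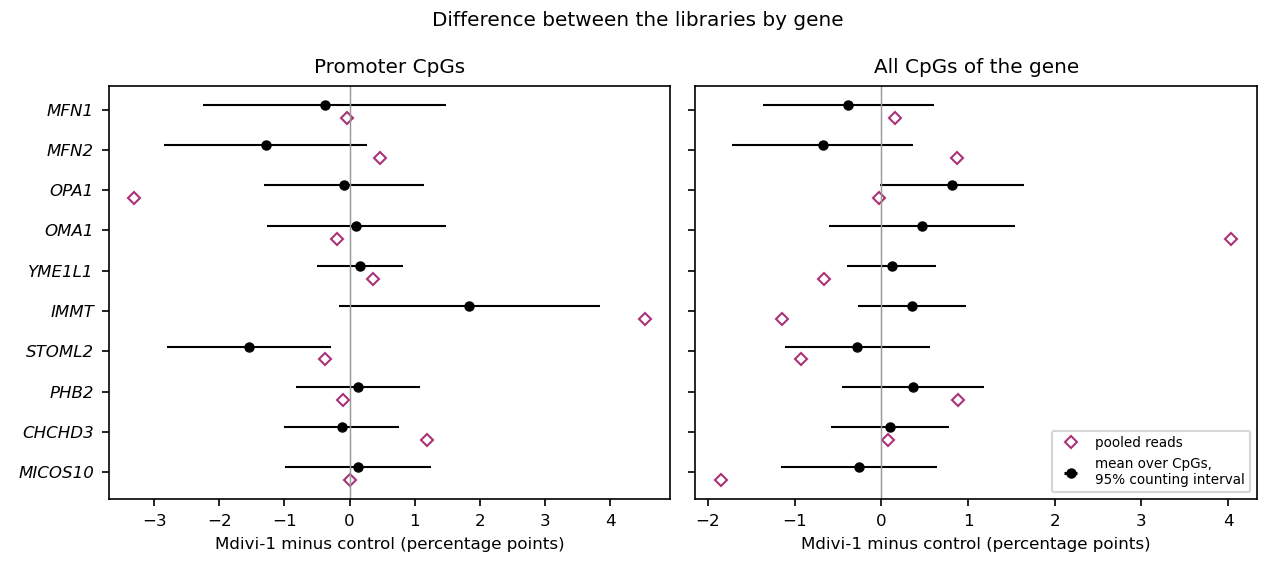
Mdivi-1 minus control methylation (percentage points) per gene for promoter CpGs (left) and all CpGs of the gene (right). Filled circles are means over CpGs with a 95% counting interval for independent CpGs, and open diamonds are differences of pooled reads. Promoter means run from -1.54 (STOML2) to 1.84 points (IMMT), and pooled values often lie on the other side of 0.

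The other genes of the pathway were read from a list of 25 measured promoters: partners of MICOS and of its bridge to the outer membrane, inner membrane scaffolds and proteases, outer membrane fusion regulators, and cardiolipin genes. In the Mdivi-1 library 14 were higher and 11 lower, with a median of 0.170 points, and 11 of 25 were under 10% in both libraries. None had a called CpG. By group, 5 of 8 MICOS partners were higher (median 0.141 points), 2 of 4 scaffold and protease genes (-0.171), 4 of 7 outer membrane regulators (0.381) and 3 of 6 cardiolipin genes (0.132). The widest gap was at PTPMT1, the phosphatase of cardiolipin synthesis, at 3.89% and 0% over 9 CpGs. None of the 121 reads summed over these 9 CpGs was methylated with Mdivi-1. That allows a level of up to 2.48% only if the CpGs share no reads. Neighbouring CpGs can share reads, so the level allowed can be higher. The difference came with counting errors of 1.79 points (independent) and 5.54 points (shared reads), and no CpG had 20 reads in both libraries. APOO, a MICOS apolipoprotein on the X chromosome, was at 35.6% and 32.2%, but differed by 2.08 points in the other direction at a minimum of 20 reads. APOOL, its paralog on the same chromosome, was at 45.5% and 43.5%.

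For comparison with the opposing process, the promoters of 11 mitochondrial fission genes were measured in the same way. The median promoter in the control was at 4.21% for the 10 genes and at 19.1% for the fission genes, of which 4 were under 10% in both libraries. The promoters of 19 genes of the TIM and TOM import complexes had a median of 2.46%, with 14 under 10%. Differences between the libraries had medians of 0.0104 points (fusion and cristae), 0.0981 points (fission) and -0.0882 points (import), and these lists were compared by description only. In the CpGs that lie in both a promoter and an island, the fission genes were at 1.31% and 1.48% and the import genes at 7.79% and 8.01%. The fusion and cristae genes were at 1.17% and 1.14%, without MFN1 and IMMT, which had no such CpG. Over all CpGs of each list, 71.2% were under 10% in both libraries for the import genes and 52.9% for the fission genes. For the fusion and cristae genes this share was 69.6%.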

How the data were processed

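Genomic DNA of SH-SY5Y cells given DMSO or Mdivi-1 was captured with the SureSelectXT Methyl-Seq kit and sequenced on a NovaSeq instrument, per the labels' protocols. BSMAP and hg19 are named, without a version of the aligner, per the submitters' processing notes. For each of 2773807 positions the authors deposited a methylated fraction per library, its coverage as an estimated count of reads, and annotation. Whole control reads followed once coverage was scaled by 1.2333, the ratio of the median coverages (37 and 30 reads) with the methylated share held to 3 decimals. The sources used here do not state this scaling, which was inferred from the values. In all, 10798 positions (0.389%) were left out, none of them in the 10 genes.

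CpGs with 10 or more reads in both libraries entered. Levels are means over CpGs, and differences are Mdivi-1 minus control. Each CpG had a two-sided Fisher exact test on its reads, adjusted by the Benjamini-Hochberg method over 2523690 CpGs, and was called at an adjusted p under 0.05 with 20 points or more. Counting errors are binomial. For independent CpGs they combine the error of each CpG at its own level. For shared reads they are the error of a single CpG at the mean level and mean coverage of the set. The latter is approximate and can be too large where unmethylated and methylated CpGs are mixed. Both cover counting only, since PCR reads carry no molecular identifiers. Stretches held 5 consecutive CpGs with no gap over 500 bp. Named CpGs were, per gene, those of smallest p, largest gain and largest loss; those that show the edge of an unmethylated zone, an intermediate level or neighbours of a named CpG were chosen after their values were seen, as was the pair of motifs. From the pathway list, the 3 promoters of largest absolute difference with 5 or more CpGs were named. All 81 list symbols matched the annotation, 2 through an older symbol, and 1 listed marker is not reported here. The genes and lists were chosen with earlier results of these data known. Alternatives were other read minimums, pooled reads, deposited fractions, removal of CpGs over 200 reads, gene means and other call rules. Scripts were tested on simulated data and used SciPy 1.17.1 and Numba 0.67.0 for the tests, pandas 2.3.3 and NumPy 2.4.6 for the tables and Matplotlib 3.10.9 for the figures, in Python 3.11.15.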

Additional observations from a re-analysis of the deposited data

How the results depend on the processing

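With 1 library per group no result has a replicate check, and leaving out a replicate could not be done. No paired analysis was possible because each group has 1 library and the result comes from no test over samples. The count of called CpGs in the 10 genes stayed at 0 under 5 alternatives: minimums of 20 and 30 reads, no minimum difference, 10 points, and counts from the deposited fraction times coverage. It was 9 with an unadjusted Fisher exact p under 0.05. The promoter difference of the 10 genes was -0.249 points, 0.168 points at a minimum of 30 reads and 0.102 points with pooled reads; other planned settings gave -0.241 to -0.0795 points. The difference over all CpGs ran from -0.0899 (pooled reads) to 0.200 points (deposited fractions), the island difference from 0.0258 to 0.339, the intron difference from -0.116 to 0.0272 and the open-sea difference from 0.515 to 0.862. The pathway median was 0.170 to 0.317 points and the mean -0.186. Using the gene entry alone, a setting chosen after seeing the data, gave -0.433 points for the promoters. Among single promoters the direction turned for 4 of 10 with pooled reads, 2 at 20 reads and 1 with the deposited fractions, and among whole genes for 5, 3 and 0. The depth allows only large differences at single CpGs to be called, as given above for the median coverage.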
